A study of Mus musculus with 13 samples.

Results

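Ribosome biogenesis factors are the proteins that transcribe, modify, cut and fold ribosomal RNA and join it to ribosomal proteins, without being part of the finished ribosome. The set described here is a list of 45 gene symbols drawn from general knowledge of that pathway, and all 45 were found among the 23337 symbols of the count tables. All 45 also passed the filter on low counts, which left 13574 genes to test. The list did not use any measured value of these libraries, but it was drawn up with earlier results of the same data known.

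The libraries are bulk RNA-seq of B cells isolated from mouse spleen by depleting CD43-bearing cells on magnetic beads. Every mouse carried hCD20TamCre, a Cre recombinase under the human CD20 promoter that acts in B cells once tamoxifen is given. Control cells were Regnase-1+/+ hCD20TamCre and deficient cells were Regnase-1f/f hCD20TamCre, so that both genotypes share the recombinase and differ in the floxed alleles of Zc3h12a, which encodes the RNA-degrading enzyme Regnase-1. Unstimulated libraries came from naive cells, 4 of control and 3 of deficient genotype, and stimulated libraries from cells given anti-IgM F(ab')2 for 4 h to engage the B cell receptor (BCR), 3 of each genotype. The labels used here state no culture time for the unstimulated cells, so a change after stimulation may include that of culture. They number the libraries without stating whether these are different mice, so p-values measure the spread between samples, which may be technical.

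Libraries held 21407724 to 33244755 counts, and the lowest raw count of any of the 45 genes in any library was 441. Levels are in CPM, counts scaled to a common library total with TMM factors. Zc3h12a lay at 121 to 131 CPM in unstimulated control libraries and 89.2 to 111 CPM in the deficient ones, and at 147 to 157 against 92.6 to 113 CPM in stimulated ones, with no overlap. In the edgeR test the log2 difference was -0.32 ± 0.07 (SE, adjusted p = 0.106) in unstimulated and -0.58 ± 0.08 (adjusted p = 0.000784) in stimulated cells. The count covers the whole gene and was not split by exon, so this difference checks the labels only in part. What sets its size was not tested. B cell markers summed to 5584 to 6609 CPM in unstimulated and 2678 to 2974 CPM in stimulated libraries, with 8 of 8 markers detected. In bulk samples fewer cells of a type and less RNA per cell cannot be told apart. T cell markers (5 of 6 with a row) summed to at most 30.2 CPM in any library, and plasma cell markers (4 of 5) to 85.2 to 143 CPM. Of the latter, Xbp1 lay at 55.3 to 102 CPM, Sdc1 at 11.7 to 45.9, Prdm1 at 10.7 to 21.0 and Tnfrsf17 at 0 to 0.609 CPM. Most of that sum was thus Xbp1, and the sum is not a measure of plasma cell number.

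Ribosome production starts in the nucleolus, where RNA polymerase I transcribes a long precursor that small nucleolar ribonucleoproteins (snoRNPs) modify at guided positions and a series of large assemblies cut and fold into the RNAs of the small and the large subunit. Resting lymphocytes hold few ribosomes, and antigen receptor engagement is known to enlarge the cell and its nucleoli before the first division. MYC, which binds the DNA motif CACGTG (the E-box), is a known activator of many of these genes in mammalian cells.

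The promoter sequences are shown because all of these genes rose together after stimulation, as described below. RefSeq promoter windows (GRCm38.p6, 250 bases before to 50 after the annotated start) were available for 40 of the 45 genes, and Bop1, Fbl, Npm1, Rrp12 and Rrs1 had none. The first 5 lines give windows of at most 30 bases around CACGTG in the genes treated library by library below, with Nop2 added as the only other gene with a match before its start. The last 3 lines give the 250 bases upstream of Polr1b, Nolc1 and Dkc1, the genes with the largest mean response among those with 1 promoter entry and at most 30 bases of annotated exon in that stretch. All are written 5′ to 3′ on the strand of the gene, and capitals mark CACGTG in the short windows and, in the long ones, any of the 5 motifs searched.
Tsr1 (chr11:74898092-74898121, plus strand): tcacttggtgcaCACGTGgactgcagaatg
Nle1 (chr11:82908355-82908384, minus strand): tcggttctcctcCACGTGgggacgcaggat
Rrn3, distal match (chr16:13780472-13780501, plus strand): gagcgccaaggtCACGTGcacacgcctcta
Rrn3, proximal match (chr16:13780639-13780668, plus strand): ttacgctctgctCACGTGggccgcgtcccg
Nop2 (chr6:125131811-125131840, plus strand): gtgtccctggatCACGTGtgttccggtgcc
Polr1b (chr2:129100746-129100995, plus strand): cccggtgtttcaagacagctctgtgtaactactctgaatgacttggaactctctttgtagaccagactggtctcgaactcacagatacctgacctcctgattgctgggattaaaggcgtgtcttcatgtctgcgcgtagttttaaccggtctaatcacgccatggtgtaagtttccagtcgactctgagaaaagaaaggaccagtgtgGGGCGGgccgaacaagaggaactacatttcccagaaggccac
Nolc1 (chr19:46075597-46075846, plus strand): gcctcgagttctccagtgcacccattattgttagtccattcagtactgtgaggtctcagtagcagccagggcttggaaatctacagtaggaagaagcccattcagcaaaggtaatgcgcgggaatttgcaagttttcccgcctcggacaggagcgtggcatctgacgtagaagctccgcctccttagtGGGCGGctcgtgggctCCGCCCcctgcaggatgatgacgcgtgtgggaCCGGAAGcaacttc
Dkc1 (chrX:75095604-75095853, plus strand): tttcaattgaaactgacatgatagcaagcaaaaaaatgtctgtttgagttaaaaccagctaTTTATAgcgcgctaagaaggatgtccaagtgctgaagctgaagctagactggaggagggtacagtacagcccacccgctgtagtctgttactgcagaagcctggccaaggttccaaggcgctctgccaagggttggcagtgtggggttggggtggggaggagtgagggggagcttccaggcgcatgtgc

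Of the 40 genes, 11 held CACGTG (27.5%), against 11.6% of the 9614 tested genes with a promoter entry and 8.09% of all 27025 genes with such an entry. A gene was counted if any of its entries matched, and the 40 genes had 48 entries. There were 12 matches, of which 9 lay after the start, at positions 3 to 41, and 3 before it, at -60 in Nop2 and at -215 and -48 in Rrn3. The other motifs, searched on both strands, do not contain the E-box. The sequence CCGGAAG, the core bound by ETS factors, was found in 13 of 40 genes (32.5%, against 18.9% of tested genes), GGGCGG, bound by SP1, in 28 (70.0% against 66.4%), and CCAAT, bound by NF-Y, in 12 of 40 (against 43.1%). TATAAA was found in 2 (5.0% against 9.34%). A match describes letters in a window and not a bound site. The 11 genes with CACGTG had a median log2 response to stimulation of 1.78 in control and 1.77 in deficient cells, and the 29 without it 1.79 in both genotypes.

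After 4 h of BCR stimulation each of the 45 ribosome biogenesis genes was higher, in control and in deficient cells alike. In control cells the median log2 change was 1.78, from 0.64 for Ubtf to 2.42 for Polr1b, while the median over all 13574 genes was -0.13. In deficient cells the median was 1.77, from 0.76 for Ubtf to 2.36 for Polr1b, while the median over all genes was -0.11. The change exceeded 2-fold for 44 genes in control and 43 in deficient cells, and 4-fold for 12 and 11.

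The quasi-likelihood test of edgeR, with p-values adjusted over all genes by Benjamini and Hochberg's method, called 45 of 45 higher and 0 lower in control cells, where 28.5% of all genes tested were called higher and 31.8% lower. In deficient cells it likewise called 45 higher and 0 lower, where 28.3% of all genes were called higher and 29.6% lower. A rise of over 2-fold was called for 10.1% of all genes in control and 9.78% in deficient cells, and one of over 4-fold for 2.22% and 2.08%. All stimulated libraries lay above all unstimulated libraries of the same genotype for all 45 genes, as they did for 29.7% of all genes in control and 30.1% in deficient cells. Taken as a sum, the 45 genes stood at 5901, 6856, 5920.4 and 5876 CPM in libraries 1 to 4 of unstimulated control cells and at 5801, 6516 and 6536 CPM in libraries 1 to 3 of unstimulated deficient cells. After stimulation they stood at 21029, 22005 and 20128 CPM in the control libraries and at 18775, 20360.1 and 21600.3 CPM in the deficient ones. Group means were 6138 ± 479 (SD, n = 4) and 6284 ± 419 CPM (n = 3) for unstimulated control and deficient cells, and 21054 ± 939 (n = 3) and 20245 ± 1416 CPM (n = 3) for stimulated ones. As a share of the raw counts, without TMM factors, they made up 0.593% to 0.690% in unstimulated and 1.84% to 2.04% in stimulated libraries.

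**Figure D1:**
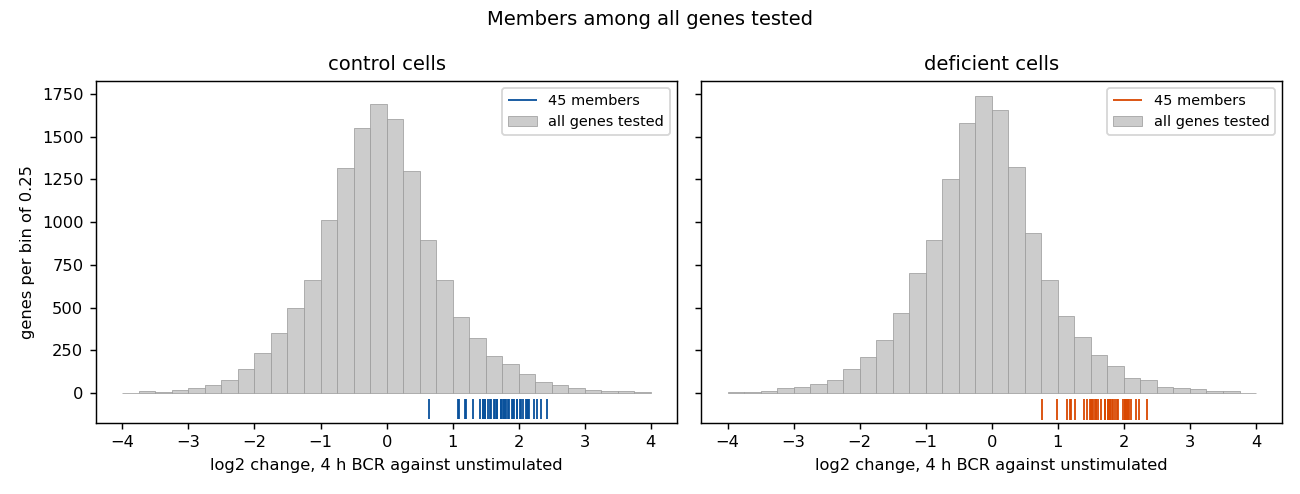
Histograms of the log2 change after stimulation for all 13574 genes tested, in bins of 0.25, for control and deficient cells, with the 45 ribosome biogenesis genes as ticks; 19 and 29 genes lie outside the drawn range. All ticks lie above 0, with medians of 1.78 and 1.77, to the right of the medians of all genes at -0.13 and -0.11.

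The 6 genes of RNA polymerase I transcription showed the widest range of responses among the 6 role groups, with a median log2 change of 1.28 in control and 1.32 in deficient cells. Polr1b encodes the second-largest subunit of the polymerase (chromosome 2, 129100995 to 129126594, plus strand, GENCODE vM21 on GRCm38). Unstimulated control libraries 1 to 4 held it at 61.5, 71.0, 65.1 and 63.0 CPM, and unstimulated deficient libraries 1 to 3 at 51.3, 72.8 and 73.7 CPM. It reached 346, 375 and 328 CPM in control stimulated and 311, 348 and 353 CPM in deficient stimulated libraries. The lowest stimulated library was thus over 4 times the highest unstimulated one, and the genotypes overlapped in both states. The log2 change was 2.42 ± 0.11 (SE, adjusted p = 2.3e-10), or 5.37-fold, in control cells and 2.36 ± 0.12 (adjusted p = 1.1e-09), or 5.12-fold, in deficient cells, and 1.10% and 1.19% of all genes tested rose more.

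Ubtf, which encodes UBF, the factor that binds and keeps open the ribosomal RNA genes (chromosome 11, 102304560 to 102319742, minus strand), had the smallest response of the 45 genes. It stood at 289.9, 284, 257 and 260.0 CPM in the control and at 292, 270.2 and 287 CPM in the deficient unstimulated libraries. It reached 448, 439 and 391 CPM in stimulated control libraries and 501, 447 and 492 CPM in the deficient ones, again above every unstimulated library. The log2 change was 0.64 ± 0.07 (adjusted p = 3.3e-07), or 1.56-fold, in control and 0.76 ± 0.07 (adjusted p = 1.3e-07), or 1.70-fold, in deficient cells, and 18.3% and 15.3% of all genes rose more. Ubtf was also the lowest of the 45 in each of the 6 pairs of same-numbered libraries, and Polr1b exceeded it there by 1.48 to 1.86 on the log2 scale.

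Rrn3 encodes TIF-IA, the factor that makes the polymerase competent to start (chromosome 16, 13780708 to 13814839, plus strand). It stood at 80.7, 84.0, 78.7 and 76.7 CPM in unstimulated control libraries and 72.2, 77.7 and 76.2 CPM in the deficient ones, and at 172, 181 and 162 CPM and 157, 167 and 173 CPM in the stimulated ones. That is a rise of 1.10 in control and 1.14 in deficient cells on the log2 scale. Polr1a, the largest subunit, rose by 1.49 and 1.51 and Polr1e, the counterpart of yeast A49, by 1.45 and 1.50. Polr1c, a subunit shared with RNA polymerase III, rose by 1.08 in control and by 0.99 in deficient cells, the only gene apart from Ubtf with a change under 2-fold there. Subunits of the same enzyme thus rose to different extents, and Polr1b rose more than Polr1a in 6 of 6 pairs, by 0.80 to 1.01.

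**Figure D2:**
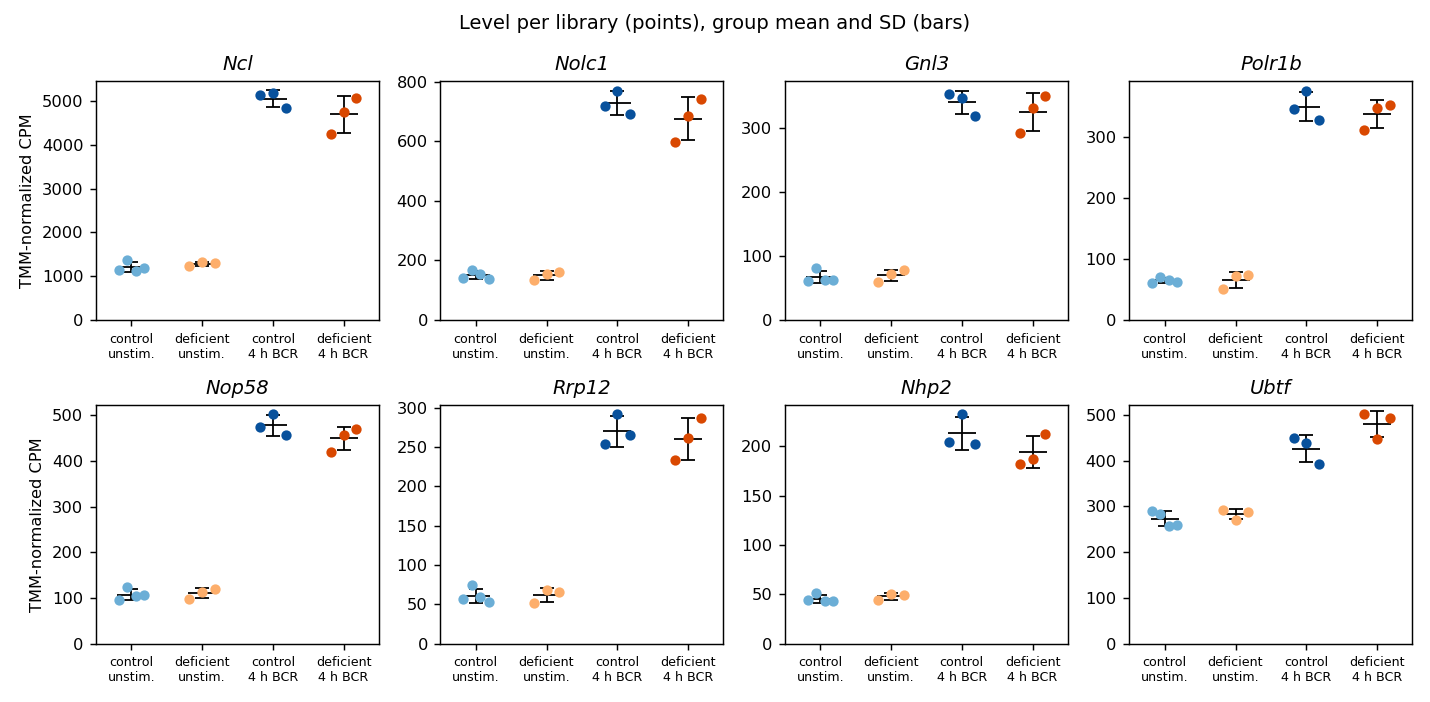
TMM-normalized CPM in each of the 13 libraries for Ncl, Nolc1, Gnl3, Polr1b, Nop58, Rrp12, Nhp2 and Ubtf, with the mean and SD of each group. In all 8 panels every stimulated library lies above every unstimulated one, and Ubtf has the narrowest gap.

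The snoRNP proteins carry the enzymes that modify ribosomal RNA. Box C/D snoRNPs place 2'-O-methyl groups, and the 3 genes of this kind had a median log2 change of 1.67 in control and 1.66 in deficient cells. Nop58, a core protein of these particles (chromosome 1, 59684971 to 59719044, plus strand), stood at 94.7, 124, 104 and 108 CPM in unstimulated control libraries and 98.6, 114 and 120.4 CPM in the deficient ones. It reached 475, 503 and 456 CPM in stimulated control libraries and 420.0, 457 and 470.3 CPM in the deficient ones, well clear of the unstimulated range. The change was 2.15 ± 0.09 (adjusted p = 1.0e-11), or 4.44-fold, in control cells and 2.02 in deficient cells. Its partner Nop56 rose by 1.67 and 1.66, and Fbl, the methyltransferase fibrillarin, by 1.54 and 1.51. Nop58 rose more than Fbl in 6 of 6 pairs, by 0.36 to 0.72, and more than Nop56 in 6 of 6, by 0.30 to 0.63.

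Box H/ACA snoRNPs convert uridine to pseudouridine, and their 4 genes had a median log2 change of 1.92 in control and 1.81 in deficient cells. Nhp2, an RNA-binding core protein (chromosome 11, 51619735 to 51623714, plus strand), stood at 44.0, 51.5, 42.9 and 43.6 CPM in unstimulated control libraries and 44.2, 50.2 and 49.8 CPM in the deficient ones. It reached 205, 233 and 203 CPM in stimulated control libraries and 182, 188 and 213 CPM in the deficient ones. Control library 2 was the highest of its group in both states. The change was 2.23 ± 0.08 (adjusted p = 5.0e-12), or 4.69-fold, in control cells and 2.02 in deficient cells. Dkc1, the pseudouridine synthase dyskerin, rose by 2.11 and 2.03, and the core protein gene Gar1 by 1.74 and 1.61. Nop10, the smallest core protein, rose by 1.19 and 1.21, less than Nhp2 in 6 of 6 pairs, by 0.73 to 1.10.

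The 13 genes of small subunit processing had a median log2 change of 1.86 in control and 1.77 in deficient cells. Rrp12, a repeat protein needed for pre-ribosome maturation and export in yeast (chromosome 19, 41862851 to 41896173, minus strand), stood at 57.1, 74.2, 59.5 and 53.6 CPM in unstimulated control libraries and 52.0, 68.3 and 65.5 CPM in the deficient ones. It reached 253, 292 and 265 CPM in stimulated control libraries and 234, 262 and 287 CPM in the deficient ones. The stimulated groups overlapped each other and lay far above the unstimulated ones. The change was 2.14 ± 0.12 (adjusted p = 5.5e-09), or 4.42-fold, in control and 2.08 ± 0.13 (adjusted p = 2.4e-08), or 4.22-fold, in deficient cells.

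Rrp9, a protein of the U3 snoRNP, which guides the early cuts of the precursor (chromosome 9, 106475963 to 106485424, plus strand), stood at 37.4, 44.2, 39.0 and 32.2 CPM in unstimulated control libraries and 28.7, 39.4 and 41.5 CPM in the deficient ones. It reached 165, 173 and 162 CPM in stimulated control libraries and 145, 161 and 167 CPM in the deficient ones. Deficient library 1 was the lowest of its group in both states. The change was 2.13 in control cells and 2.11 ± 0.13 (adjusted p = 9.8e-09), or 4.33-fold, in deficient cells.

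The remaining 11 genes of this group rose by 1.30 to 2.03 in control and 1.26 to 2.05 in deficient cells. They include the processome proteins Heatr1 (1.93 and 1.89), Wdr43 (1.92 and 1.84), Utp20 (1.78 and 1.77), Wdr75 (1.77 and 1.79), Noc4l (1.86 and 1.71) and Nop14 (1.50 and 1.49). They also include genes that act on later precursors of the small subunit, among them Bysl (2.03 and 2.05), the GTPase-like factor Tsr1 (1.92 and 1.77), Pno1 (1.73 and 1.77) and Ltv1 (1.64 and 1.52). Nob1, the endonuclease that makes the last cut of the 18S RNA, rose least in this group, by 1.30 and 1.26.

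The 13 genes of large subunit processing had a median log2 change of 1.83 in control and 1.78 in deficient cells. Gnl3, which encodes the nucleolar GTPase nucleostemin (chromosome 14, 31012433 to 31019152, minus strand), stood at 60.9, 81.6, 62.8 and 63.4 CPM in unstimulated control libraries and 60.2, 71.3 and 77.9 CPM in the deficient ones. It reached 354, 348 and 320.1 CPM in stimulated control libraries and 293, 332 and 351 CPM in the deficient ones. The genotypes overlapped in both states. The change was 2.34 ± 0.11 (adjusted p = 4.0e-10), or 5.08-fold, in control and 2.22 ± 0.12 (adjusted p = 2.2e-09), or 4.67-fold, in deficient cells.

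Nle1, which encodes a WD-repeat factor of pre-60S particles (chromosome 11, 82900768 to 82908411, minus strand), stood at 24.8, 31.9, 27.5 and 24.8 CPM in unstimulated control libraries and 21.9, 27.9 and 25.8 CPM in the deficient ones. It reached 107, 109 and 104 CPM in stimulated control libraries and 98.2, 108 and 107 CPM in the deficient ones, a narrow range in each group. The change was 1.97 in control and 2.06 ± 0.10 (adjusted p = 1.2e-10), or 4.16-fold, in deficient cells.

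Pes1, Bop1 and Wdr12 encode the members of 1 complex, PeBoW, which large subunit RNA processing needs. Pes1 rose by 1.20 in control and 1.19 in deficient cells, Bop1 by 1.42 and 1.51, and Wdr12 by 1.74 and 1.72. Wdr12 rose more than Pes1 in 6 of 6 pairs, by 0.43 to 0.66. Pes1 was the lowest of the 13 genes in both genotypes. Nop16 (2.14 and 1.99), the histone-binding factor Grwd1 (2.02 and 1.92), Mrto4, a relative of the stalk protein P0 (1.97 and 2.01), and Noc3l (1.90 and 1.82) lay at the upper end. The RNA methyltransferase Nop2 (1.83 and 1.78), Rrs1 (1.80 and 1.72), the methyltransferase-like Ftsj3 (1.68 and 1.55) and Noc2l (1.47 and 1.44) lay between.

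The 6 nucleolar chaperones and multifunctional proteins had a median log2 change of 1.71 in control and 1.68 in deficient cells. Nolc1 encodes Nopp140, which binds snoRNPs and the polymerase (chromosome 19, 46075863 to 46085530, plus strand). It stood at 140.3, 169, 154 and 139 CPM in unstimulated control libraries and 133, 153 and 163 CPM in the deficient ones, and reached 719.6, 770.2 and 691 CPM and 599, 686 and 743 CPM after stimulation. Control library 2 was again the highest and deficient library 1 the lowest of their groups in both states. The change was 2.27 ± 0.09 (adjusted p = 1.0e-11), or 4.83-fold, in control and 2.18 ± 0.10 (adjusted p = 5.7e-11), or 4.52-fold, in deficient cells.

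Ncl, which encodes nucleolin, an abundant RNA-binding protein of the nucleolus (chromosome 1, 86344719 to 86359400, minus strand), held the most counts of the 45 genes. It stood at 1137, 1370.1, 1128 and 1179.6 CPM in unstimulated control libraries and 1233, 1313 and 1308 CPM in the deficient ones. After stimulation it stood at 5134, 5190.3 and 4831 CPM in the control libraries and 4243, 4751 and 5076 CPM in the deficient ones. It rose by 2.07 in control and 1.87 in deficient cells, and its share of the counts of all 45 genes was 19.0% to 21.2% in unstimulated and 22.6% to 24.4% in stimulated libraries.

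Npm1, the nucleolar chaperone nucleophosmin (chromosome 11, 33152287 to 33163206, minus strand), stood at 658, 771, 645 and 681 CPM in unstimulated control libraries and 741, 748 and 755 CPM in the deficient ones. After stimulation it stood at 2025, 2132 and 1947 CPM in the control libraries and 1884, 1937 and 2105 CPM in the deficient ones. It rose by 1.56 and 1.40, the lowest values of this group in each genotype, and its relative Npm3 by 1.58 in both. The RNA helicase gene Ddx21 rose by 1.79 in both genotypes and Mybbp1a, which encodes a nucleolar MYB-binding protein, by 1.62 and 1.58. Per kilobase of annotated exon, Npm1 was the most abundant of the 45 genes in all 4 groups, at mean levels of 258 and 281 CPM per kb in control and deficient unstimulated cells and 763 and 741 in stimulated cells. Ncl followed at 118, 126, 496 and 460 CPM per kb, and Wdr12 was lowest, at 1.92 to 6.46. The length used was the union of exons over all annotated transcripts, 2665 bases for Npm1, 10188 for Ncl and 11955 for Wdr12. These ranks depend on that length, and which transcripts the cells made was not measured, so the order per length is uncertain.

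**Figure D3:**
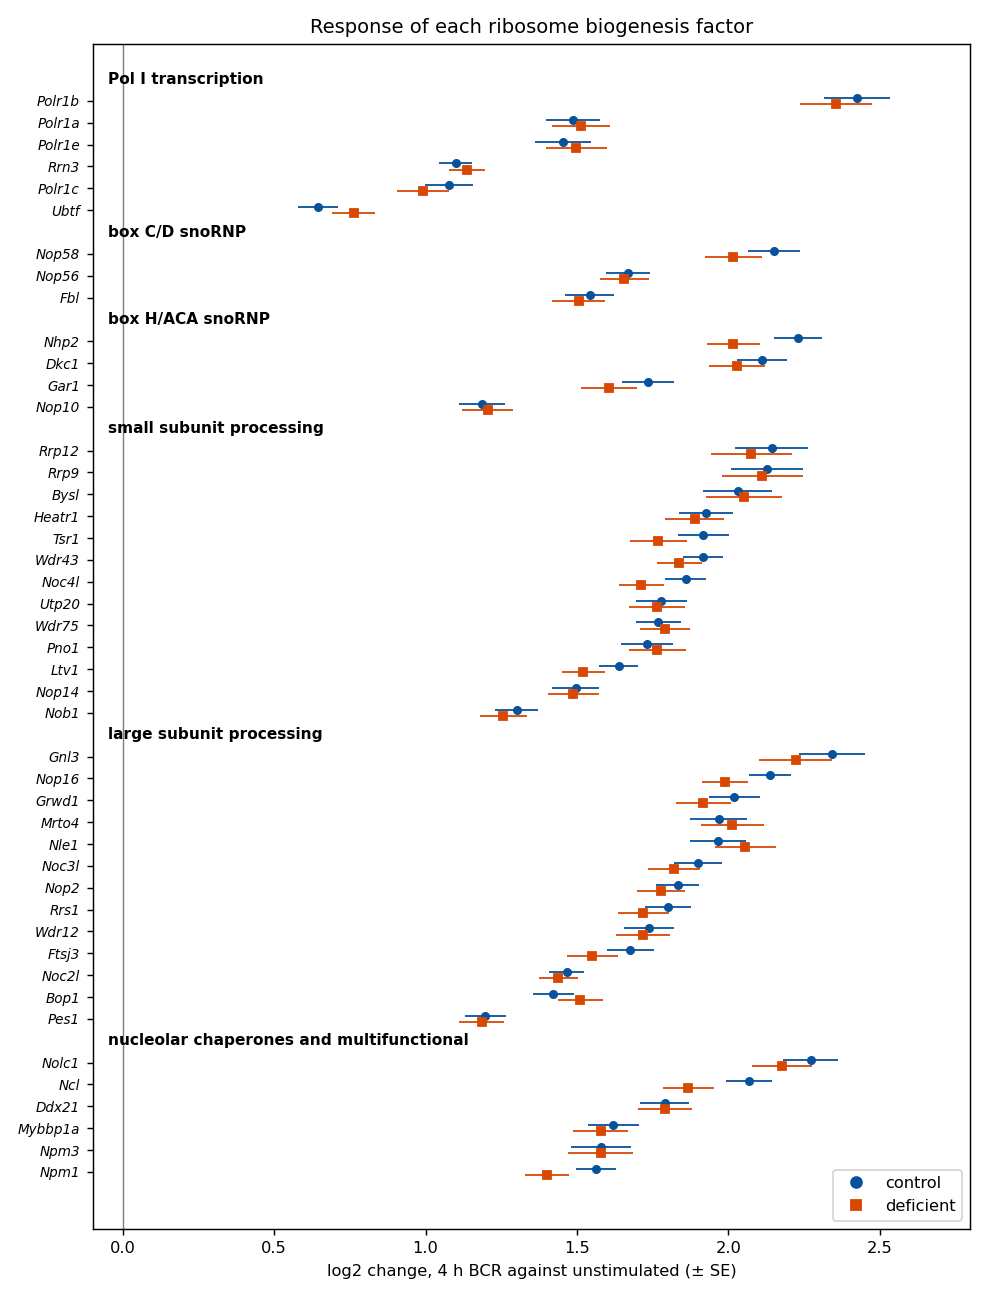
Log2 change after stimulation with its SE for each of the 45 genes, ordered by role, in control (circles) and deficient cells (squares). All 90 values lie above 0, from 0.64 for Ubtf to 2.42 for Polr1b in control cells, and the values of a gene in the genotypes lie close together, at most 0.21 apart.

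The order of the responses was much the same in the genotypes, which share no library. Across the 45 genes Pearson's r between the control and the deficient response was 0.98 and Spearman's rho 0.97, as a description, since genes are not independent replicates. The response did not follow exon length (r = 0.10, rho = 0.14 in control cells). In each of the 6 pairs of same-numbered libraries all 45 genes had a ratio above 0, with median log2 ratios of 1.80, 1.71 and 1.76 in control pairs 1 to 3 and 1.79, 1.67 and 1.72 in deficient pairs 1 to 3. The largest ratio belonged to Gnl3 in control pairs 1 (2.54) and 3 (2.35) and to Polr1b in the other 4 pairs (2.26 to 2.60).

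The wider pathway was read from a second list of 110 ribosome biogenesis genes outside the 45, of which 106 had a row and were tested. In control cells 100 rose, 2 fell and 4 were not called, with a median log2 change of 1.24. In deficient cells 101 rose, 3 fell and 2 were not called, with a median of 1.20. Of all genes tested 28.5% in control and 28.3% in deficient cells were called higher, and 31.8% and 29.6% lower. Rrp1b, a large subunit processing gene, changed most, by 2.72 ± 0.13 in control and 2.69 ± 0.14 in deficient cells. The genes that fell in both genotypes were Gltscr2 (-0.34 and -0.22), whose product binds 5S RNP proteins, and the nucleolar protein gene Nol7 (-0.25 and -0.29). Both calls in control cells and that of Nol7 in deficient cells held in all alternatives in which the gene had a value. The call of Gltscr2 in deficient cells ended in 4 of 24, without unstimulated deficient library 2 (adjusted p = 0.104) or 3 (0.0549), without stimulated deficient library 1 (0.0875) and with DESeq2's size factors (0.0510). Taf1b, a subunit of the polymerase I selectivity factor, was called lower in deficient cells (-0.24, adjusted p = 0.0210) and was at -0.13 in control cells (adjusted p = 0.155). Its call in deficient cells ended in 7 of 25 alternatives, among them DESeq2 (adjusted p = 0.0712), limma (0.0564) and leaving out unstimulated deficient library 2 (0.0539) or 3 (0.0512) or stimulated deficient library 1 (0.149). Sbds, which acts in the last step of large subunit maturation, was at -0.0015 in control (adjusted p = 0.983) and 0.0043 in deficient cells (adjusted p = 0.956).

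In unstimulated cells no ribosome biogenesis gene differed between deficient and control cells past the threshold, and in stimulated cells none did either. The log2 differences were small, from -0.12 to 0.13 in unstimulated cells (median 0.02, with the median of all genes at -0.02) and from -0.14 to 0.17 in stimulated cells (median -0.04, with all genes at 0.00). In unstimulated cells the lowest bound of any 95% confidence interval was -0.33, that of Rrp9, and the highest 0.31, that of Dkc1, and in stimulated cells they were -0.35 for Rrp9 and 0.32 for Ubtf. Differences beyond those bounds lay outside the interval of each of the 45 genes, while smaller ones could not be told from none.

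The quasi-likelihood test called 0 of 45 genes in unstimulated cells, where 0.324% of all genes were called, and 0 of 45 in stimulated cells, where 2.01% were called. Given those shares, the counts of 0 are close to the background and say nothing particular about these genes. At an unadjusted p under 0.05 there were 0 of the 45 genes in unstimulated and 1 in stimulated cells. Of all 13574 genes 1171 and 1629 met that level. DESeq2 gave 1 and 1 of the 45 and limma 0 and 1 at that level, and neither called any of the 45 after adjustment. All 45 genes overlapped between the genotypes in unstimulated cells, where 8.72% of all genes did not. In stimulated cells 1 of 45, Tsr1, did not overlap and lay lower in deficient cells, where 17.8% of all genes did not overlap in either direction.

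In unstimulated cells the smallest p belonged to Npm1, Bop1 and Rrn3. Npm1, whose levels are given above, had a log2 difference of 0.12 ± 0.07 (95% interval -0.02 to 0.26, adjusted p = 0.660), and control library 2, at 771 CPM, lay above all 3 deficient libraries. Bop1, on chromosome 15, stood at 85.6, 99.9, 90.5 and 84.7 CPM in the control libraries and 75.5, 88.4 and 85.4 CPM in the deficient ones, with overlap, a difference of -0.12 ± 0.07 (adjusted p = 0.688). Rrn3 differed by -0.09 ± 0.06 (adjusted p = 0.731).

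In stimulated cells the smallest p belonged to Ubtf, Noc4l and Nhp2. Ubtf was higher in deficient cells by 0.17 ± 0.07 (95% interval 0.02 to 0.32), but did not pass after adjustment (adjusted p = 0.319), and deficient library 2, at 447 CPM, lay below control library 1, at 448 CPM. Noc4l stood at 49.0, 53.9, 48.8 and 46.8 CPM in unstimulated control libraries and 47.1, 54.8 and 49.8 CPM in the deficient ones, and at 181, 192 and 168 CPM in stimulated control libraries and 158, 175 and 164 CPM in the deficient ones. Its stimulated groups overlapped, with a difference of -0.12 ± 0.07 (adjusted p = 0.578). Nhp2 differed by -0.13 ± 0.08 (adjusted p = 0.595). Tsr1 stood at 202, 204 and 191 CPM in stimulated control libraries and 173, 183 and 185 CPM in the deficient ones, a difference of -0.14 ± 0.09 (adjusted p = 0.612).

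**Figure D4:**
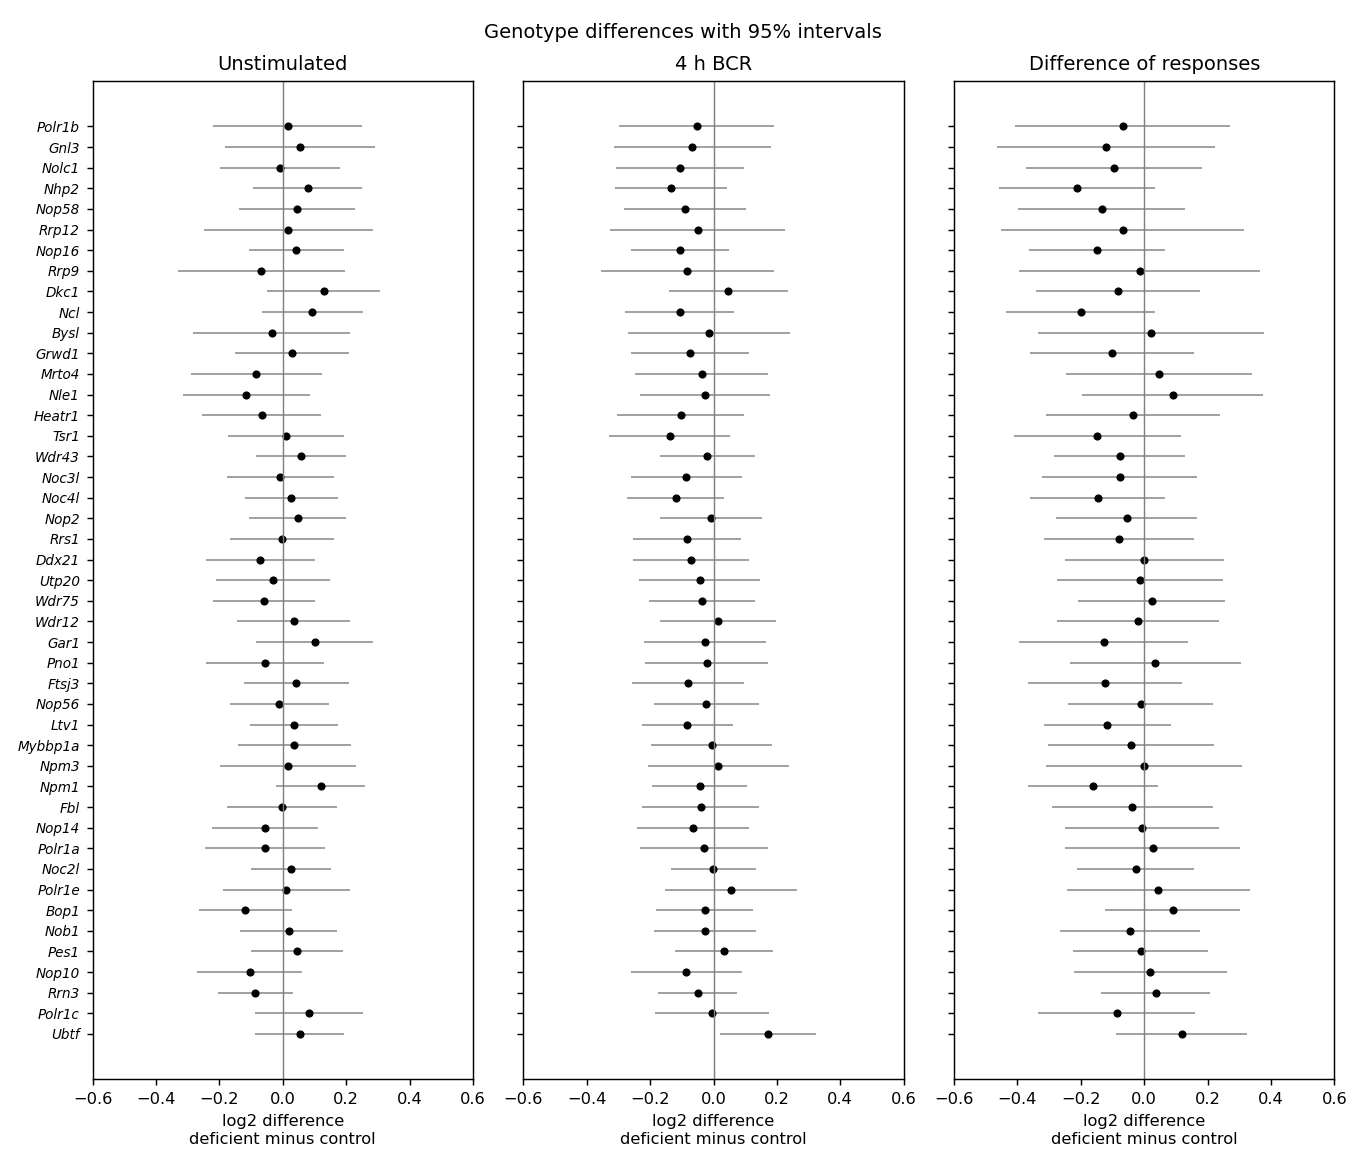
Log2 difference between deficient and control cells for each of the 45 genes with its 95% confidence interval, in unstimulated cells, in stimulated cells, and for the difference of the stimulation responses. No point lies beyond -0.21 or 0.17, and in the stimulated panel the interval of Ubtf (0.02 to 0.32) does not include 0.

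The response to stimulation was compared between the genotypes by the interaction term of the same fit. It called 0 of 45 genes, where 0.00737% of all genes, a single gene, were called. At an unadjusted p under 0.05 there were 0 of the 45 genes, against 510 of all 13574, with 2 in DESeq2 and 0 in limma. With same-numbered libraries paired in the edgeR fit there were 4 at that level. The smallest adjusted p was then 0.43, and 68 of all genes were called. Without unstimulated deficient library 1 there were 6, the most in any alternative. No alternative called any of the 45 after adjustment. In the main fit, without pairing, differences ran from -0.21 to 0.12 with a median of -0.04, with all genes at 0.02. The 95% intervals of that fit reached down to -0.46 for Gnl3 and up to 0.38 for Bysl. The difference was above 0 for 12 of the 45 genes and for 7533 of all 13574 genes. Single libraries moved the count of 12: among unstimulated libraries it was 4 without control library 2 and 3, 24 and 20 without deficient library 1, 2 and 3 in turn. Among stimulated libraries it was 21 and 7 without control library 2 and 3 in turn, and 22 and 5 without deficient library 1 and 3 in turn. In the main fit the smallest p belonged to Nhp2 (-0.21 ± 0.12, 95% interval -0.46 to 0.03), Ncl (-0.20 ± 0.11) and Npm1 (-0.16 ± 0.10), each with an adjusted p of 0.9997. Of the 106 genes of the wider list 0 were called in each of these 3 genotype comparisons, against 0.324%, 2.01% and 0.00737% of all genes. At an unadjusted p under 0.05 there were 2, 5 and 2 of the 106, against 1171, 1629 and 510 of all 13574 genes.

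The 45 genes moved together from library to library within a group. Taking each gene's log2 level against its group mean, the median over the 45 was -0.05, 0.16, -0.03 and -0.08 in libraries 1 to 4 of unstimulated control cells and -0.16, 0.07 and 0.06 in libraries 1 to 3 of unstimulated deficient cells. Among stimulated libraries 1 to 3, the median was -0.01, 0.07 and -0.06 for control and -0.10, 0.02 and 0.09 for deficient cells. Control library 2 was the highest of its group for 44 of 45 genes unstimulated and 43 stimulated, and deficient library 1 the lowest for 44 and 43. Such medians and ranks were not computed over all genes, so whether the shifts are particular to these 45 was not tested. These shifts are as large as the genotype differences. Without both deficient libraries numbered 1 the difference in stimulated cells was above 0 for 27 of 45 genes, in place of 6, with a median of 0.01, and in unstimulated cells for 39, in place of 26, with a median of 0.08. Other libraries moved these counts too: the 26 became 17 and 15 without unstimulated deficient library 2 and 3 in turn, and the 6 became 20 without stimulated control library 2, 4 without stimulated control library 3 and 2 without stimulated deficient library 3.

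**Figure D5:**
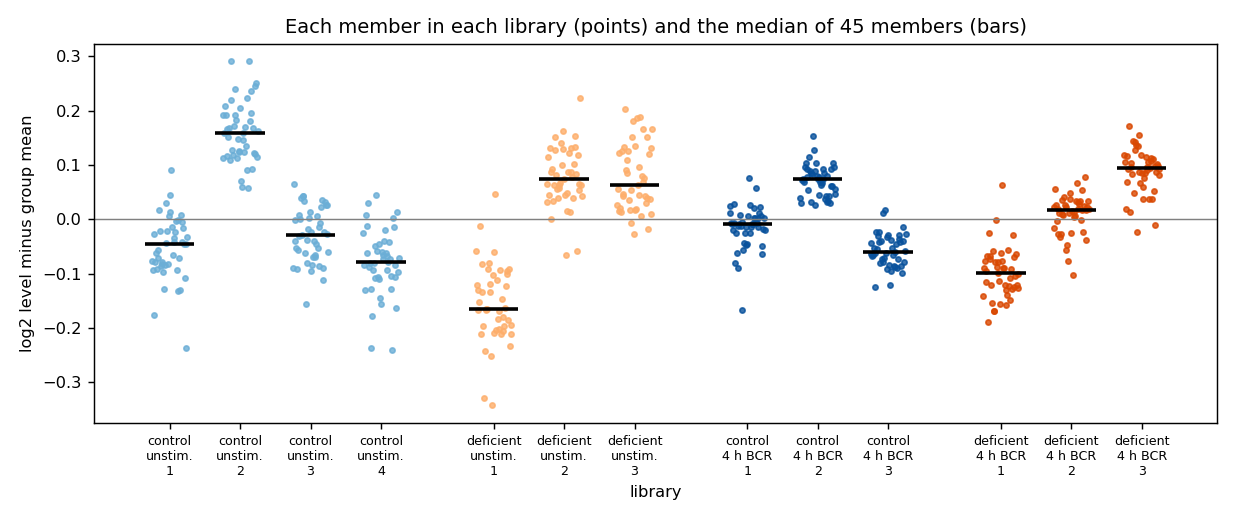
Log2 level of each of the 45 genes minus its group mean in each library, with the median as a bar. Control library 2 lies highest in its groups (medians 0.16 and 0.07) and deficient library 1 lowest (medians -0.16 and -0.10).

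Markers of other cells varied between the same libraries. Erythroid markers, of which 9 of 13 had a row and 2, Hba-a1 and Hba-a2, were at 0 in all libraries, summed to 332, 605, 395 and 725 CPM in unstimulated control libraries and 1232, 180 and 749.7 CPM in the deficient ones. They summed to 289.6, 462 and 376 CPM in stimulated control libraries and 1112, 118 and 469 CPM in the deficient ones. Deficient library 1 was thus the highest in both states, and it also held the most counts of cycling cell markers (8 of 8 with a row), 1265 CPM unstimulated and 1057 CPM stimulated, against at most 755 CPM elsewhere. Myeloid markers (5 of 6 with a row) lay between 55.2 and 487 CPM and neutrophil markers (5 of 6) between 8.41 and 218 CPM. With the summed erythroid level as a term in the fit, 45 genes still rose in both genotypes and 0 were called in the genotype comparisons. The part of the other cells in the shifts between libraries was not tested.

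The genes lie on 18 chromosomes, with 9 of them on chromosome 11, so they do not form 1 cluster. In GENCODE vM21 7 of them (Ncl, Nop56, Nop58, Dkc1, Wdr43, Tsr1 and Gnl3) contain 21 small nucleolar RNA genes, of which 11 lie in introns and the others overlap an annotated exon of some transcript. The sources used here do not say whether their reads entered the host's count. A further 9 genes have a protein-coding gene starting on the opposite strand within 1000 bases, such as Mrto4 with Emc1 at 11 bases, Polr1c with Yipf3 at 26 bases and Noc4l with Ddx51, another ribosome biogenesis gene, at 34 bases. Exon bases are shared with another gene in 20 of the 45, most in Tsr1, which overlaps Srr on the opposite strand over 1240 bases, Noc2l, which overlaps Samd11 over 598, and Bysl, which overlaps Ccnd3 over 361. Without a stated strand setting the reads of such pairs cannot be separated and those levels are uncertain, as they are for Fbl, Npm3 and Mrto4, for which RefSeq names pseudogene copies. Copies were looked up only under the gene's own symbol followed by -ps. Those with other names were not searched, so more of the 45 genes may have copies.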

How the data were processed

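The authors deposited raw read counts per gene symbol for 13 libraries, with TopHat, HTSeq and mm10 named, without versions, per the submitters' processing notes. The authors also deposited log2 values, for which those notes name DESeq2; their exact transformation, the annotation, the strand setting and the treatment of multi-mapping reads are not given in the sources used here. Counts were tested here with edgeR 4.0.16 (R 4.3.3): filterByExpr with a minimum count of 10, TMM factors, and a robust quasi-likelihood fit of all 13 libraries with 1 mean per group, which left 13574 genes and 9 residual degrees of freedom. Of 23337 symbols in the count tables, 1 that lacked a value in some library was not used. A call is an adjusted p under 0.05 (Benjamini-Hochberg, over all genes). Levels are TMM-normalized CPM; the SE is the log2 change divided by the root of F. A total of 3 counts stood for 0.0902 to 0.140 CPM, and such limits cover counting error only. The code was checked on simulated data. All pairs of replicates differed by more than sampling noise.

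Within a genotype, libraries with the same number deviated alike from their group means before and after stimulation: over 9658 genes r was 0.729, 0.489 and 0.569 for control numbers 1 to 3 and 0.83, 0.765 and 0.621 for deficient numbers 1 to 3, so numbers pair the states within a genotype; this comes from the data, not from the labels.

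The members, their roles and all lists were chosen with earlier results of these data known. Genes treated library by library are the 6 with the largest change in each response and the 3 with the smallest p in each genotype comparison; Tsr1 and the genes named from the wider list were chosen after their values were seen. Alternatives were DESeq2 1.42.0, limma 3.58.1 on the deposited log2 values, other size factors, other filters, only the groups compared, a replicate block, an erythroid term and left-out libraries. Positions come from GENCODE vM21 and promoter sequences from RefSeq (GRCm38.p6).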

Additional observations from a re-analysis of the deposited data

Results flagged for a closer look

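In control unstimulated cells, the only group with enough libraries for this check, library 2 stood far above the other 3 for 7 of the 45 genes and for their sum, out of 47 values checked. Its gap to the next library exceeded Dixon's critical value for 4 samples, which chance passes in about 1 of 20 groups, and the genes move together, so these results are not independent. The values were 189 CPM for Fbl, 51.5 CPM for Nhp2, 166 CPM for Wdr43, 417 CPM for Ddx21, 61.2 CPM for Tsr1, 81.6 CPM for Gnl3, 34.2 CPM for Grwd1 and 6856 CPM for the sum of the 45 genes. Library 2 was also the highest of the 3 control stimulated libraries for 43 of 45 genes. The 47 values checked were the 45 genes, their sum and the median of their log2 levels against the group mean. That median, 0.16 in unstimulated control library 2, did not exceed the critical value.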

How the results depend on the processing

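All 25 alternatives run for the responses called 45 of 45 genes higher in both genotypes, and all 25 (24 for the difference of responses, where fitting only the groups compared is the same fit) called 0 in each genotype comparison; no named result changed sign where it was called. The median control response of 1.78 became 1.85 with DESeq2's size factors in edgeR and 1.85 in DESeq2, 1.71 with upper-quartile factors, 1.63 with library totals alone and 1.83 without both libraries of deficient number 1. The deficient response of 1.77 became 1.67 with upper-quartile factors and 1.61 with library totals alone. Scaling moved the median of all genes too, between -0.28 and -0.03 in control cells, and the 45 genes stayed 1.83 to 1.95 above it in control and 1.74 to 1.94 in deficient cells. Leaving out 1 library at a time gave medians of 1.75 to 1.83 and 1.67 to 1.83 for the responses, -0.03 to 0.08 and -0.09 to 0.01 for the genotype differences, and -0.13 to 0.0067 for the difference of responses, so the sign of the last 3 medians rests on single libraries. With the replicate block the medians were 1.76 and 1.76 for the responses and -0.02 for their difference (paired by number within a genotype, 4 residual degrees of freedom), and -0.01 and -0.04 for the genotype comparisons (6 residual degrees of freedom), where the numbers do not pair the libraries (r of -0.595 to -0.0568); the block changed no call. Library totals alone and leaving out both libraries of control number 2 were chosen after the data were seen. Over all genes the calls ranged from 17 to 163, 129 to 532 and 0 to 68 in the 3 genotype comparisons, against 44, 273 and 1. Depth does not limit the 45 genes, whose lowest count was 441. For the difference of responses the interval bounds of the main fit reached down to -0.46 (Gnl3) and up to 0.38 (Bysl). That fit has few libraries per group and does not use the pairing by number, and both enter the width of its intervals. With the replicate block the quasi-likelihood test gave 4 of the 45 genes an unadjusted p under 0.05 for that difference. The smallest adjusted p there was 0.43.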
